A study of Mus musculus with 2 samples.

Results

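Mesothelial and epicardial cells were taken from 2 single-cell RNA libraries of mouse embryos at E13.5 as the cells with at least 1 unique molecular identifier (UMI, the tag that counts each captured transcript once) in 3 or more of 8 marker genes, namely Upk3b, Wt1, Aldh1a2, Muc16, Lrrn4, Upk1b, Msln and Bnc1, and with fewer than 2 of the endothelial and immune genes Cdh5, Pecam1 and Ptprc detected. These members numbered 140 of 6272 filtered cells, 71 of 2783 in the control library and 69 of 3489 in the mutant library. Both genotypes carried Isl1-Cre, which is active in cardiopharyngeal mesoderm and other Isl1-expressing progenitors, and the R26R-eYFP reporter, and the mutant embryos also carried the activating allele Pik3caH1047R. The samples are labelled pharyngeal arch, but by the study's methods the upper body above the liver was dissected. The eYFP-positive cells were sorted, and 3 embryos of a mixed background were pooled for each library, so a cell without eYFP was not sampled. There was 1 library per genotype, so no difference between genotypes could be tested. The 95% intervals given here cover the counting error of UMIs or cells, not the spread between embryos. Those of UMI counts also leave out the spread between cells.

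The mesothelium is the simple squamous epithelium that lines the body cavities and covers the heart, lungs and other viscera. The epicardium is its part on the heart surface. It derives from the proepicardium, expresses Tbx18, Tcf21 and Wt1, and gives rise to fibroblasts and mural cells by an epithelial-to-mesenchymal transition. Mesothelial cells keep an epithelial shell of keratins and apical glycoproteins while expressing mesodermal transcription factors and collagens, and the enzyme Aldh1a2 makes them a source of retinoic acid for the tissue underneath.

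The members held 2204235 UMIs in control and 1206104 UMIs in mutant, with a median of 28338 UMIs and 6348 genes per control cell and of 14596 UMIs and 4734 genes per mutant cell. The depth gap between the libraries was therefore wider in the members than in all filtered cells, whose medians were 20412 and 16839 UMIs. Members made up 2.55% of filtered control cells (Clopper-Pearson interval 2.00 to 3.21) and 1.98% of filtered mutant cells (1.54 to 2.50), and these intervals overlap. The same total contains the endothelium, at 5.71% in control and 22.0% in mutant, so the share of members depends on the other sorted cells as well. The libraries had 28 barcodes in common, 1 of which belonged to a member, and none was a member in both.

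The number of markers detected set the members apart from most other cells. In control, 2231 filtered cells had none of the 8 markers, 440 had 1, 37 had 2, 2 had 3 and 3 had 4, whereas 25 had 7. In mutant, 2807 cells had none, 560 had 1, 51 had 2, 12 had 3 and 5 had 4, whereas 22 had 6. All 11 members with exactly 3 markers were mutant cells, with a median of 10147 UMIs and 366 CPM of Upk3b (CPM, UMIs per 1000000 UMIs of the cells summed). The 51 mutant cells just outside the rule, with 2 markers, had a median of 21459 UMIs and 4.31 CPM of Upk3b, and the 37 such control cells had 9.61 CPM. Not every mesothelial gene showed such a gap. Krt7 was at 111 CPM in the mutant cells just inside and 126 CPM in those just outside, and Upk1b at 31.8 and 102 CPM. The plot of cells by number of markers shows the number of cells at each count, and since the rule chose members on these genes, it is a description.

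**Figure D1:**
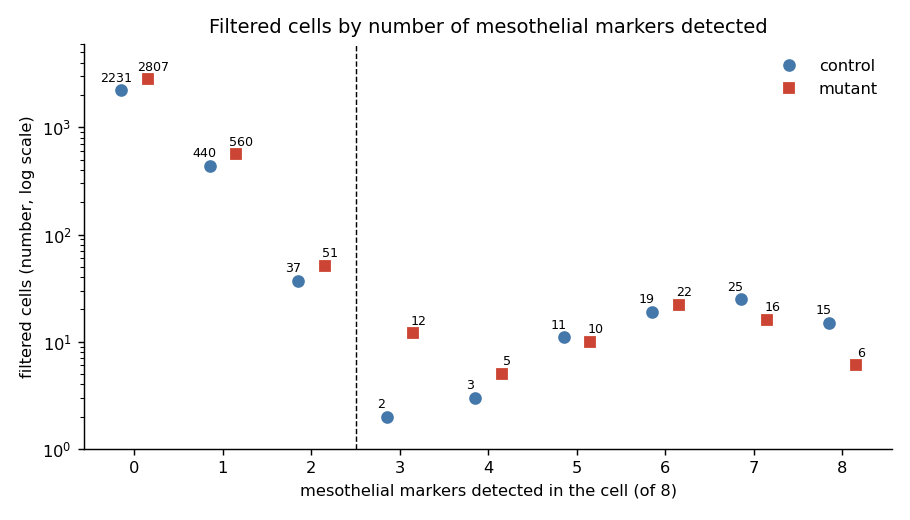
Filtered cells (number, log scale) by how many of the 8 mesothelial markers had at least 1 UMI in the cell, for control (circles) and mutant (squares), with the numbers printed; the dashed line is the rule's limit. Few cells had 3 or 4 markers, and the control cells have their upper peak at 7 markers and the mutant cells at 6.

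Upk3b, a uroplakin of the mesothelial surface (chr5:136038496-136046487, plus strand), was found in 70 of 71 control members and 64 of 69 mutant members, at 805 CPM (768 to 844) and 976 CPM (921 to 1033). In endothelium cells of the same libraries, which should lack it, it was found in 1.26% and 0.261% of cells at median depths of 20951 and 17325 UMIs. Wt1, the zinc-finger factor of mesothelium and epicardium, stood at 174 CPM in control members and 403 CPM in mutant members, and was detected in 100% and 95.7% of them. Wt1 also had UMIs in 14.7% of mutant endothelium cells, so it alone does not mark the members. Aldh1a2 was at 570 and 512 CPM, Bnc1, a basonuclin, at 95.7 and 147 CPM, and Lrrn4 at 180 and 133 CPM. Muc16 and Msln encode a mucin and its binding partner at the mesothelial surface. Muc16 was at 104 and 128 CPM. Msln was the least detected of the markers, in 26.8% of control and 17.4% of mutant members. With every cell thinned to 5000 UMIs, Upk3b remained in 91.5% and 85.3% of members, and Wt1 was in 66.2% and 80.9%.

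The label was checked with genes that the rule did not use. Of 18 other mesothelial genes, 13 could be compared with mesenchyme cells, chosen by mesenchymal markers, and 9 of these were at least 2-fold higher in members in both libraries, against 3.96% of all genes tested, while none was 2-fold lower in both, against 6.23%. Against epithelium cells 8 of 13 were higher and 2 were lower, the keratin genes Krt8 and Krt18. Krt7, a simple-epithelial keratin, was at 405 CPM in control members and 260 CPM in mutant members, and at 0.615 and 0.381 CPM in mesenchyme. That is a log2 ratio of 9.36 (8.52 to 10.37) in control and 9.41 (8.04 to 11.29) in mutant. Podxl, the anti-adhesive sialomucin of the apical membrane, had log2 ratios of 7.73 and 7.26 over mesenchyme, Krt19 8.59 and 6.38, and Gpm6a 6.44 and 6.21. The other genes of the 10 highest over mesenchyme were Dpp4, Tmem108, Tgm2, Bcam, Myrf and F11r, with log2 ratios between 4.23 and 5.95 over both libraries.

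Over epithelium cells, chosen by Epcam, Cdh1 and related markers, the leading genes were mesodermal. Tbx18 led, at 109 and 339 CPM in members against 0.232 and 0.531 CPM in epithelium, log2 ratios of 8.88 (6.39 to 14.19) and 9.32 (7.76 to 11.60). Gata4, a cardiac and mesodermal zinc-finger factor, was at 0 in control epithelium, so its log2 ratio there was at least 7.50 with a floor of 3 UMIs, and it was 8.76 in mutant. The fibrillar collagen genes Col1a1 (7.58 and 7.04) and Col3a1 (6.59 and 6.49) followed, with Rarres2, Osr1, Aebp1, Myrf, Nid2 and Fbln2. The epithelial cadherin gene Cdh1 had 2 UMIs in the members of each library, and Cdh2 and Cdh3, N-cadherin and P-cadherin, stood at 80.8 and 90.7 CPM in control members. Of 11 epicardial genes compared with epithelium, 9 were 2-fold higher in members in both libraries, and none was lower, against 5.27% and 7.12% of all genes. Against mesenchyme, 6 of 12 were higher and 1 was lower, with medians of 1.07 in control and 2.27 in mutant.

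Junction and matrix genes were compared with both tissues, where the shares of all genes higher and lower in both libraries were 3.96% and 6.23% over mesenchyme and 5.27% and 7.12% over epithelium. Of 13 junction and polarity genes compared with mesenchyme, 7 were at least 2-fold higher in both libraries and none lower, and of 16 compared with epithelium 2 were higher and 2 lower, with medians of -0.76 in control and -0.42 in mutant. Crb2, which encodes an apical polarity protein, had log2 ratios of 5.86 and 7.38 over mesenchyme and 4.39 and 4.42 over epithelium. Dsp, which encodes the desmosomal protein desmoplakin, was intermediate, with log2 ratios of 3.41 and 3.47 over mesenchyme and -2.22 and -2.38 over epithelium. Of 20 basement membrane genes, 8 were higher than in mesenchyme in both libraries. They included Npnt, which encodes nephronectin (3.79 and 4.38), Fras1 (2.89 and 3.60) and Lama5 (4.40 and 4.23), and 2 genes, Lama2 and Frem1, were lower. Against epithelium, 4 of 19 basement membrane genes were higher in both libraries and none was lower.

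Secreted signals as a list differed little from mesenchyme. Of 29 compared, 2 were 2-fold higher in members in both libraries and 3 lower, with medians of 0.02 in control and 0.48 in mutant, near the 3.96% and 6.23% of all genes that also stand behind the other counts against mesenchyme given here. The 2 were Rspo1 and Fgf9. Rspo1, which encodes a WNT enhancer, was at 204 and 114 CPM in members, log2 3.62 and 2.31 above mesenchyme, and Fgf9 was 3.93 and 1.88 above it. Among retinoic acid genes, Aldh1a2 (a rule gene) was the only one of 14 that was 2-fold higher than in mesenchyme in both libraries. The binding proteins Crabp1 (log2 ratios of -4.23 and -4.17) and Crabp2 (-4.22 and -2.05), the retinol uptake receptor Stra6, the degrading enzyme Cyp26b1 and the receptors Rara and Rarg were lower. Of 13 EMT and cadherin genes, 5 were at least 2-fold lower than in mesenchyme in both libraries, namely Snai1, Snai2, Twist1, Twist2 and Zeb2, and 2 were higher, Cdh3 (2.57 and 3.17) and Fn1 (1.08 and 1.52). Twist1 and Twist2 were among the genes that chose the mesenchyme. Of the 7 measured genes among those that chose the mesenchyme, 6 were lower in members in both libraries and none higher, with medians of -2.76 and -2.20. The exception, Dcn, a small proteoglycan gene, was at 697 CPM in control members and 628 CPM in control mesenchyme. In mutant members Dcn was at 575 CPM, while the most abundant of these markers in mutant mesenchyme was Prrx1, at 247 CPM. At least 3 of the 8 mesenchyme markers were found in 38 of 71 control and 24 of 69 mutant members. Of 15 Hox genes, 8 were lower than in mesenchyme and none higher.

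The mutant library was then compared with control among the members. Pik3ca itself had 42 UMIs in control and 49 in mutant, 19.1 and 40.6 CPM, a log2 ratio of 1.09 (0.47 to 1.72), and the counts do not tell the allele apart. Of 8592 genes with at least 50 UMIs, 721 were at least 2-fold higher in mutant members (8.39%) and 298 at least 2-fold lower (3.47%), and the median log2 ratio was 0.04. The plot of gene lists sets each list beside this background.

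**Figure D2:**
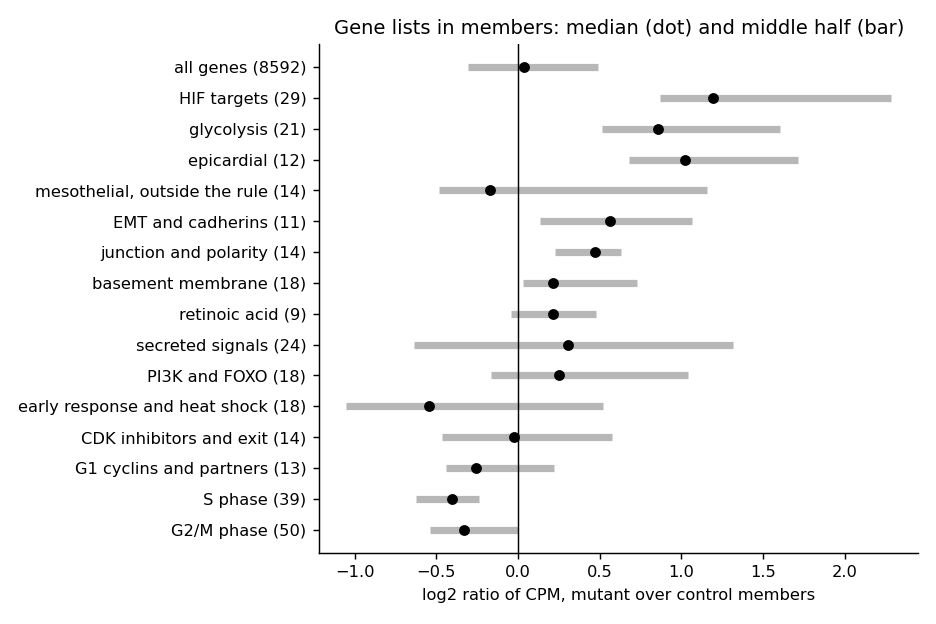
Log2 ratio of CPM in mutant over control members for each gene list, with the median as a dot, the interquartile range as a bar and the number of genes with at least 50 UMIs in parentheses. The HIF targets (median 1.19), epicardial genes (1.02) and glycolysis genes (0.86) lie to the right of all genes (0.04), and the S phase (-0.40) and early response and heat shock (-0.54) lists to the left.

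The targets of hypoxia-inducible factor (HIF) were the list with the highest median of those with at least 5 measured genes. HIF is a pair of transcription factors whose alpha subunit is degraded when oxygen is ample and which otherwise turns on genes for blood vessel growth, glucose uptake and glycolysis. Of 35 listed targets, 29 had at least 50 UMIs, 20 of them were at least 2-fold higher in mutant members and none was 2-fold lower, with a median log2 ratio of 1.19 and an interquartile range of 0.87 to 2.28. The same list gave 24 of 35 genes and a median of 1.30 in mesenchyme, 23 of 34 and 1.52 in epithelium, and 26 of 34 and 2.05 in endothelium, where 3.83%, 3.72% and 7.11% of all genes were 2-fold higher.

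Cell by cell, the summed HIF targets ran from 9.39 through a median of 18.5 to 32.7 UMIs per 10000 in control members and from 9.33 through 33.3 to 161 in mutant members. Of 69 mutant members, 61 lay above the control median and 35 above the highest control member, and the groups overlapped below that. Vegfa, the vascular growth factor gene (chr17:46016993-46032369, minus strand), had 78 UMIs in 39 of 71 control members and 361 UMIs in 57 of 69 mutant members. Its level was 35.4 CPM in control and 299 CPM in mutant, a log2 ratio of 3.08 (2.72 to 3.45). The highest control member had 2.86 UMIs per 10000 of Vegfa, and 24 mutant members were above it. In the other tissues the log2 ratio of Vegfa was 1.10 in mesenchyme and 1.79 in epithelium, and its control level was lower in members than in mesenchyme (78.7 CPM) and epithelium (53.1 CPM), whereas its mutant level was higher than in both (168 and 184 CPM).

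**Figure D3:**
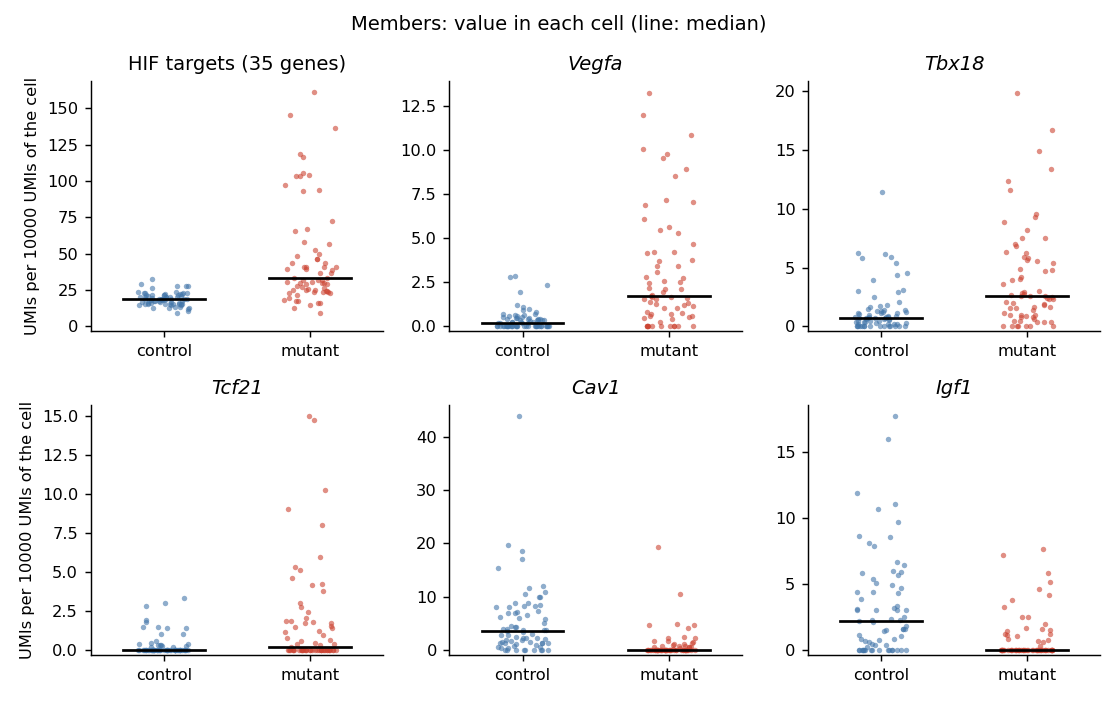
UMIs per 10000 UMIs of the cell in each of 71 control and 69 mutant members, with a line at the median, for the summed HIF targets and 5 genes. For the HIF targets 35 mutant members lie above every control member, and for Cav1 and Igf1 most mutant members lie at or near 0.

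Other targets fell into known groups. Genes of mitochondrial turnover and metabolism included Bnip3, which promotes mitophagy (2.51, 2.16 to 2.87), Bnip3l (0.80) and the pyruvate dehydrogenase kinase Pdk1 (0.87), of which only Bnip3 was past 2-fold. Egln3 and Egln1 encode oxygen-sensing prolyl hydroxylases that mark HIF for destruction, and had log2 ratios of 2.61 and 0.89. Collagen-modifying enzymes were P4ha2 (2.22), P4ha1 (1.17), Plod2 (1.20) and Loxl2 (1.22), while Plod1 was at -0.02. Ddit4, an inhibitor of mTORC1 signalling, was at 2.69 (2.36 to 3.03), Ndrg1 at 3.40 (2.93 to 3.90) and the transcriptional repressor gene Bhlhe40 at 3.34 (2.82 to 3.89). In cells thinned to 5000 UMIs, Ndrg1 was at 3.07 and Bhlhe40 at 1.99. Among the targets under 50 UMIs, Adm, which encodes the vasodilator peptide adrenomedullin, had 3 UMIs in control and 37 in mutant members. None of the 6 measured genes of the HIF machinery was past 2-fold, Hif1a being at 0.64 (0.31 to 0.97), and the HIF-2 alpha gene Epas1 had 3 and 4 UMIs in the members of the 2 libraries.

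The core letters of the HIF binding site, ACGTG, were looked for on both strands in the 250 bases before the RefSeq starts of these genes (build GRCm38.p6). Of 35 targets, 26 matched the promoter table, older symbols included, and 18 of these (69.2%) held the letters before at least 1 start. Among the 16 matched targets that were 2-fold higher in mutant members, 13 held them (81.2%), beside the 69.2% of all matched targets. Of the 27025 genes in the table, 18.5% held them. The list was made of known HIF targets, so its excess over all genes is not a result of these cells. These shares are not matched on base composition, and a match is not a bound site. The sequences of 3 targets show where the letters lie. They have the highest ratios among measured targets that held a match and whose start opened an annotated transcript, so that each has a match by choice. They are shown 5′ to 3′ with the match in capitals, and all 3 genes are on the minus strand. Ankrd37 (log2 ratio 2.92) lies at chr8:45999851-46000100, Ddit4 (2.69) at chr10:59951771-59952020 and Egln3 (2.61) at chr12:54203875-54204124.
Ankrd37: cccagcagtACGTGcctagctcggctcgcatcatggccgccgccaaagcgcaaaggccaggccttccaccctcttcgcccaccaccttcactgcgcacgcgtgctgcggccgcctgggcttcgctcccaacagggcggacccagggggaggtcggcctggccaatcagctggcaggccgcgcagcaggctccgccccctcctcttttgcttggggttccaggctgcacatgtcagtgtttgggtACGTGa
Ddit4: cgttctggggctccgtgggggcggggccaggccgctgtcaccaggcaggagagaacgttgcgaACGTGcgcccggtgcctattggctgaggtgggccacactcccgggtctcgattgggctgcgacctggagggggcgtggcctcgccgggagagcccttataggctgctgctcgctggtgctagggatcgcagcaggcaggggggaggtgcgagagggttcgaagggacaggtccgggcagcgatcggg
Egln3: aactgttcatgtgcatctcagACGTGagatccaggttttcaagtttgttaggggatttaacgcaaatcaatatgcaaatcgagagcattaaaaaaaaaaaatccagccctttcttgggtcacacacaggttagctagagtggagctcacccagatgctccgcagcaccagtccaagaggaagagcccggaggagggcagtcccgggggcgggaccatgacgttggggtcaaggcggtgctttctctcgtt
Ankrd37 had 2 matches, 1 of them near the start, and the other 2 genes had 1 match each, far from the start in both.

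Glucose uptake and glycolysis genes were higher in mutant members in 10 of 21 measured cases by at least 2-fold and lower in none, beside 8.39% and 3.47% of all genes, with a median of 0.86. Of the glucose transporter genes, Slc2a1 (GLUT1, chr4:119108711-119137983, plus strand) was at 118 CPM in control and 502 CPM in mutant, log2 2.08 (1.87 to 2.30), and Slc2a3 (GLUT3) at 14.5 and 179 CPM, log2 3.62 (3.08 to 4.21). Of the enzyme genes, Hk2 was at 1.91, Pfkfb3 at 2.95, Pgk1 at 1.44 and Ldha at 1.09, whereas Gapdh (0.47), Pgam1 (0.38) and Tpi1 (0.61) stayed under 2-fold. The mesenchyme had 19 of 23 genes past 2-fold (3.83% of all genes) and a median of 1.24, and the epithelium 11 of 23 (3.72%) and 1.00. The endothelium had 17 of 23 higher (7.11%), 1 lower and a median of 1.41, so the median was lowest in members. Control members already had more glycolysis RNA than control mesenchyme, 7742 against 4631 CPM over the list, and mutant members had 13373 CPM against 11047 in mutant mesenchyme, while epithelium had 6852 CPM in control and 14398 CPM in mutant. Slc16a3, the lactate exporter MCT4, was at 153 CPM in control members against 23.7 in control mesenchyme, and at 340 CPM in mutant members against 159 in mutant mesenchyme and 189 in mutant epithelium. Between the libraries it thus differed by a log2 ratio of 1.15 in members, of 2.75 in mesenchyme and of 3.04 in epithelium.

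**Figure D4:**
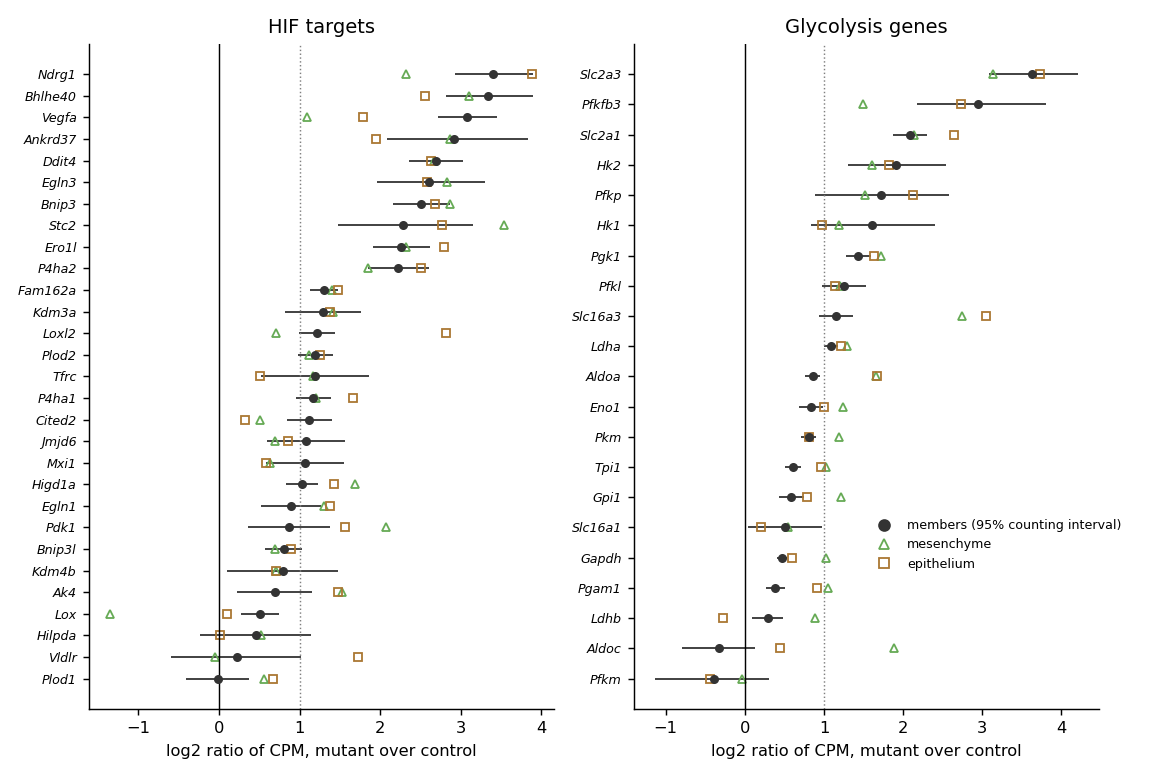
Log2 ratio of CPM, mutant over control, for HIF targets (left) and glycolysis genes (right) with at least 50 UMIs in members, as dots with 95% counting intervals, with mesenchyme (triangles) and epithelium (squares) beside them; the dotted line is 2-fold. Vegfa was higher in members (3.08) than in the other 2 groups, and Slc16a3 and Aldoc were higher in mesenchyme than in members.

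Epicardial genes were also higher in mutant members. All 12 had at least 50 UMIs, 6 were at least 2-fold higher, none was 2-fold lower, and the median was 1.02, beside 8.39% and 3.47% of all genes. It was 0.44 in members without a Tcf21 UMI and 0.41 in those with fewer than 2 epicardial-type markers. In mesenchyme 5 of 12 were 2-fold higher (3.83% of all genes) and 3 lower, with a median of 0.46. In endothelium 5 of 9 were higher (7.11% of all genes) and 1 lower, with a median of 1.01. In epithelium none of 4 was higher (3.72% of all genes) and 2 were lower, with a median of -0.56. Tbx18, a T-box factor of the epicardium (chr9:87702800-87731260, minus strand), was at 109 CPM in control and 339 CPM in mutant, log2 1.63 (1.40 to 1.87). Its value per cell had a median of 0.738 UMIs per 10000 in control (0 to 11.5) and 2.59 in mutant (0 to 19.9), so the libraries overlapped. Tcf21, the basic helix-loop-helix factor of epicardial cells on the way to fibroblasts (chr10:22817281-22820174, minus strand), had 48 UMIs in 22 control members and 239 UMIs in 35 mutant members, log2 3.19 (2.73 to 3.66). Its log2 ratio was -1.15 in mesenchyme and -1.90 in epithelium, the latter from 20 and 7 UMIs. Its level was 21.8 and 198 CPM in members and 99.6 and 44.9 CPM in mesenchyme, so it does not mark the members alone. Thinned to 5000 UMIs, 11.3% of control and 35.3% of mutant members had a Tcf21 UMI, and the log2 ratio was 1.57. It was 1.80 when cells with 2 of the 8 markers were included. Itga4, the integrin subunit by which epicardial cells attach to myocardium, had 9 and 86 UMIs (log2 4.13), Tbx20 was at 1.37 and Gata4 at 0.87. Sema3d (443 and 431 CPM) and Gata5 (37.2 and 33.2 CPM) were near equal in the 2 libraries.

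The other mesothelial genes went both ways. Of 14 measured, 5 were 2-fold higher, where 8.39% of all genes were, namely Krt8, Krt18, Efemp1, Bicc1 and Cdh2, and 1 was 2-fold lower, Cldn15, a claudin, with 85 UMIs in control and 10 in mutant (-2.22). The median was -0.17, and it was 0.23 in cells thinned to 5000 UMIs. Podxl (-0.14) and Gpm6a (-0.11) differed little, and Krt7 was at -0.64 (-0.83 to -0.46). At least 2 of the 5 epicardial-type markers Tbx18, Tcf21, Sema3d, Scx and Tbx20 were found in 60 of 71 control members and 61 of 69 mutant members, so most members of both libraries had them. Whether the mixture of epicardial and other mesothelial cells or the level per cell differed between the libraries cannot be told apart from these counts.

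Markers of heart muscle were also higher in mutant members. The 7 cardiomyocyte genes summed to 430 CPM in control members and 1365 CPM in mutant members. The most abundant was Myl7, at 394 and 1033 CPM, and Myh7 was at 0 in control members. In mesenchyme the list summed to 259.5 and 98.6 CPM, in epithelium to 102 and 118 CPM, and in endothelium to 29.8 and 206 CPM, so it was higher in mutant endothelium too and lower in mutant mesenchyme. Of 73 Myh7 UMIs in mutant members, 61 were in 1 cell. At least 4 of the 7 genes were found in 2 control and 5 mutant members, and without these cells, an alternative chosen after seeing the data, the epicardial median was 0.94 and the HIF median 1.25. The smooth muscle list went from 108 to 572 CPM, led by Tagln (123 and 490 UMIs), and its sum was likewise larger for mutant cells of the mesenchyme (617 and 1074 CPM), epithelium (105 and 561 CPM) and endothelium (91.7 and 214 CPM). Epithelial markers summed to 7.26 and 53.1 CPM, with Grhl2 at 0 in both libraries, and 2 mutant members had at least 3 of them. Mesenchymal markers, led by Dcn, summed to 823 and 755 CPM with Dpt at 0 in both, endothelial markers to 118 and 138 CPM, immune markers to 32.2 and 15.8 CPM, and hepatoblast markers to 3.18 and 25.7 CPM. The hepatoblast markers were at 2.40 and 428 CPM in mesenchyme and at 5.80 and 2754 CPM in epithelium, so mutant members had less of them than these groups. Their part in the gene lists was not tested.

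Mesenchymal and adhesion genes that accompany epicardial EMT were given by a separate list, of which 3 of 11 were 2-fold higher in mutant members and none was lower, beside 8.39% and 3.47% of all genes. The 3 were Zeb2 (1.16), Cdh2 (1.37) and Cdh3 (1.45), Fn1 was at 0.79 and Vim at 0.03. Snai1 (29 and 31 UMIs) was at 0.97 (0.19 to 1.75). Pdgfra, a growth factor receptor gene that helped choose the mesenchyme cells but not the members (chr5:75152292-75198215, plus strand), had 2 UMIs in 2 control members and 60 UMIs in 18 mutant members, log2 5.78 (3.86 to 8.86), against log2 ratios of -0.12 in mesenchyme and 0.02 in epithelium. Of these 60 UMIs, 47 were in members with a Tcf21 UMI. Of 18 measured basement membrane genes, Col4a1 (1.28), Col4a2 (1.25) and Lama2 (1.47) were 2-fold higher and Frem2 (-1.03) was lower, beside the same shares. Of all genes over 100 kb, 22.6% were 2-fold higher in mutant members. The EMT and basement membrane lists were not split by gene length.

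Secreted signals went both ways, with 7 of 24 at least 2-fold higher, 4 lower and a median of 0.31, beside 8.39% and 3.47% of all genes. Beside Vegfa, the higher ones were Slit3 (2.32) and Slit2 (1.47), guidance ligands, Vegfc (2.02), Tgfb2 (1.64), Ptn (1.64) and Cxcl12 (1.26). This list was not split by gene length, and 22.6% of all genes over 100 kb were 2-fold higher in mutant members. The lower ones were Igf1, a growth factor gene (chr10:87858265-87937042, plus strand), at 354 CPM in control and 102 CPM in mutant (-1.80, -2.08 to -1.52), the WNT modulators Sfrp2 (-1.65) and Rspo3 (-1.35), and Fgf18 (-1.16). Igf1 was found in 54 control and 24 mutant members, and 10 control members were above the highest mutant member. It was also lower in mutant mesenchyme (-1.15). Crabp2 (17 and 73 UMIs, 2.97) was the only one of 9 measured retinoic acid genes past 2-fold, and Rarb was at 0.22.

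The 10 genes with the highest ratios by the rule for naming genes were Myl2, Cemip, Ebf1, Slc2a3, Ctnna3, Fat3, Ndrg1, Bhlhe40, Myl4 and Tcf21, with log2 ratios from 3.19 to 7.99. Myl2, a ventricular myosin light chain, had 1 UMI in control and 139 in mutant, 123 of them in 1 cell. Its log2 ratio was 7.99 (5.49 to 13.30), 4.93 without that cell and 2.72 in cells thinned to 5000 UMIs. Slc2a3, Ndrg1 and Bhlhe40 were also between 2.00 and 4.27 in mesenchyme, epithelium and endothelium. Cemip, which encodes a hyaluronan-degrading protein (chr7:83932857-84086502, minus strand), had 15 UMIs in 8 control members and 181 UMIs in 30 mutant members. It was at -0.13 in mesenchyme and, from 20 and 19 UMIs, at -0.46 in epithelium (-1.45 to 0.52). Ebf1, an early B-cell factor found in mural and stromal lineages, had 27 and 208 UMIs, but its log2 ratio was 0.27 when cells with 2 of the 8 markers were included. Myl4, an atrial myosin light chain, had 225 UMIs in mutant members with 134 in 1 cell, and without that cell its log2 ratio was 2.01 in place of 3.26. Without the members that had 4 cardiomyocyte markers it was 0.96. Fat3 was at 0.53 in the few members with fewer than 2 epicardial-type markers and at 1.90 when cells with 2 of the 8 markers were included.

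The 10 genes with the lowest ratios were Bst2, Col14a1, Kirrel3, Ecrg4, Dynlt1b, Cav1, Col6a6, Ppp2r2b, Nbl1 and Igfbp7, with log2 ratios from -1.93 to -3.98. Cav1, the caveolar coat gene (chr6:17306335-17341452, plus strand), had 1089 UMIs in 62 control members and 118 UMIs in 25 mutant members, 494 and 97.8 CPM, log2 -2.34 (-2.62 to -2.06), with -0.99 in mesenchyme and -0.80 in epithelium. Col14a1, a fibril-associated collagen gene, was at 157 and 9.95 CPM (-3.98) and was also lower in mesenchyme (-2.71) and epithelium (-2.05), and 20 control members were above the highest mutant member. Bst2, tetherin, was at 104 and 6.63 CPM (-3.98), against -0.20 in mesenchyme and 0.12 in epithelium. Kirrel3 was at 124 and 11.6 CPM (-3.42), against 0.46 in mesenchyme, -0.55 in epithelium and 2.92 in endothelium, and at -1.17 when cells with 2 of the 8 markers were included. In the members with fewer than 2 epicardial-type markers, 11 in control and 8 in mutant, Ppp2r2b was at -0.02, Igfbp7 at 0.03 and Bst2 at -1.23. Dynlt1b was lower in all 4 groups, by log2 ratios of -2.68 in members and -1.93 to -2.17 in the others. Col6a6 was lower in members (-2.30) and mesenchyme (-1.45), and had only 14 and 2 UMIs in epithelium and 7 and 6 in endothelium.

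The RNA of the members itself differed between the libraries. Genes longer than 100 kb took 10.0% of UMIs in control members and 14.8% in mutant members, whereas in mesenchyme they took 12.1% and 11.4%, and in epithelium 11.7% and 11.5%. The nuclear RNA Malat1 was at 3099 and 4769 CPM in members, and ribosomal protein genes took 16.6% and 14.1%. Of 1445 genes over 100 kb, 22.6% were at least 2-fold higher in mutant members, against 5.52% of 7143 shorter genes. Ctnna3, Fat3, Ebf1 and Cemip are over 100 kb, as are Col14a1, Kirrel3, Col6a6 and Ppp2r2b among the lowest. Leaving out the 11 control and 30 mutant members with over 15% of UMIs in such genes, also chosen after seeing the data, gave a HIF median of 1.31, a glycolysis median of 1.14 and an epicardial median of 0.95, and the share of genes 2-fold higher was 4.02%. The part of RNA quality in single genes was not tested. Nor was the part of gene length in the counts of the secreted signal, EMT and basement membrane lists.

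The libraries also differed in the sex of their cells, called from Xist and 4 Y-linked genes. Of control members 69 were female-like and 2 unassigned, and of mutant members 23 were female-like, 37 male-like and 9 unassigned. Among female-like cells alone, the HIF median was 1.01 with 11 of 22 genes past 2-fold, the glycolysis median 0.58 and the epicardial median 0.86. Within the mutant library the summed HIF targets were at 3859 CPM in female-like and 5921 CPM in male-like members, and at 1866 CPM in female-like control members. Vegfa was at 251, 347 and 35.2 CPM in the same order.

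Cell-cycle phase was scored from lists of 43 S and 54 G2/M genes in cells thinned to 5000 UMIs. Of 71 control members, 34 scored as G1 (47.9%, 35.9 to 60.1), and of 68 mutant members 47 did (69.1%, 56.7 to 79.8), 1 mutant member being too shallow. These intervals overlap slightly. At full depth the shares were 42.3% and 63.8%. G2/M cells were 31.0% in control and 16.2% in mutant, and S cells 21.1% and 14.7%, while 8 control and 9 mutant members had scores within 0.05 of the limit between G1 and the rest. In mesenchyme the G1 share was 56.5% in control and 48.6% in mutant, in the other direction, and in epithelium 45.4% and 53.4%.

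**Figure D5:**
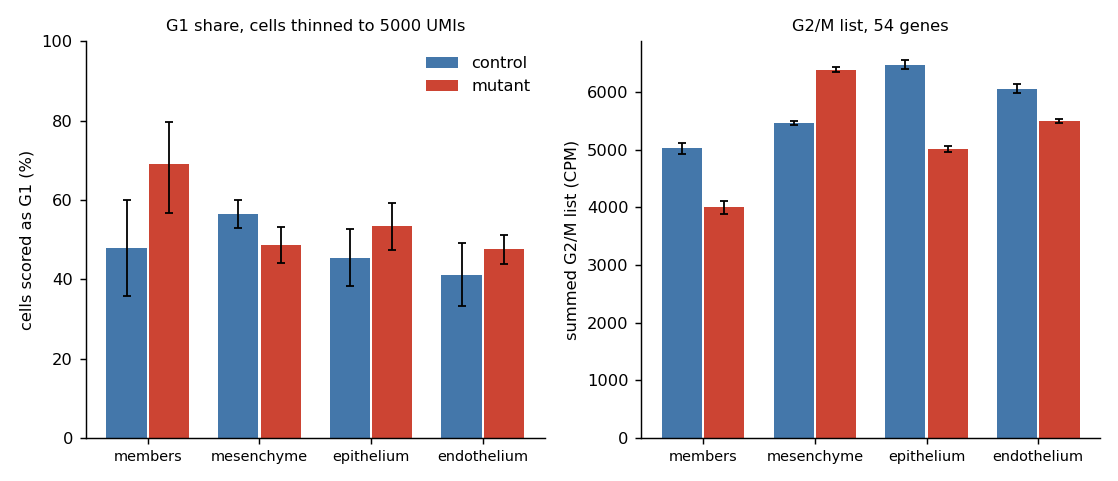
Left, percent of cells scored as G1 with Clopper-Pearson intervals, in cells thinned to 5000 UMIs. Right, summed CPM of 54 G2/M genes at full depth with Poisson intervals, for members, mesenchyme, epithelium and endothelium of each library. Mutant members have the highest G1 share (69.1%) and the lowest G2/M sum (3999.7 CPM) of the 8 groups shown.

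The RNA of the phase genes was also summed without a score per cell. The S list summed to 3094 CPM in control members and 2299 CPM in mutant members, and the G2/M list to 5023 and 3999.7 CPM, with Poisson intervals that do not overlap. Of 39 measured S genes, 35 were below a log2 ratio of 0 and 6 at least 2-fold lower, among them Fen1 and Rrm2. None was 2-fold higher. Of all 8592 genes, 4069 were below 0, 3.47% were 2-fold lower and 8.39% were 2-fold higher. Of 50 G2/M genes, 37 were below 0 and 4 were 2-fold lower (Tubb4b, Cdc20, Ndc80 and Nuf2), beside the same 3.47% of all genes. None was 2-fold higher. The median of the G2/M list was -0.33. This median was 0.06 when cells with 2 of the 8 markers were included and -0.02 in members without a Tcf21 UMI, so the direction of the G2/M list depends on which cells are counted. Mki67 was found in 28.2% of control and 20.6% of mutant members after thinning (52.1% and 37.7% before), and Top2a in 32.4% and 22.1%, with intervals that overlap for both, and Pcna, an S phase gene, in 29.6% and 33.8% (69.0% and 60.9% before), also with overlapping intervals.

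Genes of cell-cycle exit went both ways, 7 of 14 measured above a log2 ratio of 0 and 7 below, with a median of -0.03. Of these, 1 was 2-fold higher, Ddit3, a stress-response gene (1.46), and none was lower, beside 8.39% and 3.47% of all genes. Cdkn1c, the CDK inhibitor p57 (chr7:143458339-143461050, minus strand), was abundant in both libraries, at 1743 and 1649 CPM and in 71 of 71 and 67 of 69 members. Cdkn1a, p21, was at 12.7 and 6.63 CPM from 28 and 8 UMIs, and Cdkn1b, p27, at 25.4 and 31.5 CPM, log2 0.31 (-0.32 to 0.93). Of 13 measured G1 cyclin and partner genes, Ccne1 (-1.17) and E2f1 (-1.13) were 2-fold lower and Mycn (1.15) higher, the last near the share of all genes. The G1 share was also read by Tcf21 within a library. In control, 15 of 22 members with a Tcf21 UMI scored as G1 (68.2%, 45.1 to 86.1) and 19 of 49 without one (38.8%, 25.2 to 53.8), and in mutant 26 of 35 (74.3%, 56.7 to 87.5) and 21 of 33 (63.6%, 45.1 to 79.6). The intervals overlap in both libraries.

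The list of early response and heat shock genes went both ways. Of 18 genes, 12 were below a log2 ratio of 0, and 5 were 2-fold lower, where 3.47% of all genes were, Fos (-1.67), Fosb (-1.72), Egr1 (-1.75), Junb (-1.21) and Dusp1 (-1.09), and 3 were 2-fold higher, where 8.39% were, Hspa1a (1.02), Hspa1b (1.76) and Hsph1 (1.12). Fos was at 617 CPM in control and 194 CPM in mutant members, with log2 ratios of -0.51 in mesenchyme and 0.13 in epithelium. Of 18 measured PI3K and FOXO genes, 5 were 2-fold higher and 2 lower, beside 8.39% and 3.47% of all genes. The lower ones were Pik3r1, the regulatory subunit gene (-1.07), and the glucose-responsive Txnip (-1.24). Inpp4b (3.30) led the higher ones, but 40 of its 54 mutant UMIs were in 1 cell.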

How the data were processed

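Cells of 2 libraries (10x 5′ chemistry, 1 per genotype, each from 3 pooled E13.5 embryos) were read from the deposited filtered matrices. Per the labels, the authors made these whole-number UMI counts per gene and cell with Cell Ranger 7.1.0 on mm10; no normalization had been applied. The cell filter asked for over 2000 genes, under 9000 genes and mitochondrial UMIs below 10%. Members and the gene lists were chosen with earlier results of these data known. Mesenchyme, epithelium and endothelium cells had at least 3 of their own markers, of no other of these groups, and fewer than 3 of the 8 rule markers. Markers and lists, not clusters, define these groups, so they may differ from the study's cell types.

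UMIs were summed over the cells of a group and library and given as CPM. List counts and medians of ratios use genes with at least 50 UMIs in both libraries together. Some ratios of named genes in other groups rest on fewer. Intervals are exact (Poisson, Clopper-Pearson, or conditional binomial for ratios) at 95%, and a gene at 0 was set to a floor of 3 counts over the group. With 1 library per genotype, no test between genotypes was possible, so 2-fold stands in for a call. edgeR 4.0.16 supplied only the TMM factor of an alternative. Cell-cycle phases were scored with scanpy 1.11.5. The doublet caller marked 0 and 1 cells, so it had not worked, and all cells were kept; an alternative removed the 162 and 230 highest-scoring barcodes, which held 2 and 1 members. The 10 genes named for the highest and the 10 for the lowest ratios had at least 100 CPM in a library and a ratio interval beyond 1.5-fold, leaving out sex-linked, rule and haemoglobin genes; other named genes are examples from the lists. Gene positions are from GENCODE (GRCm38) and promoters from RefSeq. The ratio computation was tested on simulated data. Alternatives changed the marker rule, cell filters, scaling, minimum UMIs and cell subsets.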

Additional observations from a re-analysis of the deposited data

Results flagged for a closer look

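Among barcodes that failed the cell filter, 5 of 1722 in control and 7 of 1868 in mutant also met the marker rule. They were outside every comparison. With the filter widened to at least 1000 genes and no upper limit, members numbered 76 in control and 74 in mutant, and the HIF target median was 1.19.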

How the results depend on the processing

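No paired analysis was possible because each genotype had 1 library, and for the same reason no replicate could be left out. Over 22 alternatives the HIF target median lay between 1.00 and 1.57 and the glycolysis median between 0.58 and 1.25. The TMM factor shifted every log2 ratio by -0.12, which left 16 of 29 HIF targets past 2-fold. Asking for 2 of the 8 markers gave a member share of 3.77% in control and 3.10% in mutant, with 5.30% of genes 2-fold higher. Leaving out members with 4 mesenchymal markers gave a control share of 1.69%. The share of genes 2-fold lower was 6.25% in female-like cells and 15.1% in the 11 control and 8 mutant members with fewer than 2 epicardial-type markers, where Igfbp7 had a log2 ratio of 0.026 in place of -1.93. Of alternatives chosen after seeing the data, members without a Tcf21 UMI had 5.76% of genes 2-fold lower, members with one had a control G1 share of 68.2%, and the share of genes 2-fold higher was 4.02% without members over 15% long-gene UMIs and 5.53% without genes over 100 kb. The cause of these changes was not tested. The mutant G1 share lay between 62.9% and 78.3% over the 14 alternatives computed for it, and was 57.1% in the 7 scored cells with fewer than 2 epicardial-type markers. The epicardial median was 0.44 in members without a Tcf21 UMI and 0.41 in members with fewer than 2 epicardial-type markers, both of which are chosen on genes of that list. Counts of a few UMIs per cell limit single-gene values per cell, more so in mutant members.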

Other observations

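Isl1, the gene whose promoter drives the Cre, had 122 UMIs in control members and 8 in mutant members, 55.3 and 6.63 CPM, a log2 ratio of -3.06 (-4.31 to -2.04). It belongs to no list and was chosen after its values were seen.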
